A study of Arabidopsis thaliana with 134 samples.

Results

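The 16 recombinant inbred lines (RILs) of Arabidopsis thaliana whose seedlings held the most seed storage transcripts were compared with the 16 that held the least. They were chosen by measured values. For each of 65 lines, the TPM (transcript abundance scaled for gene length and for the library total) of 8 storage protein genes were summed in each of its 2 libraries, and the mean of both sums ranked the lines. The 32 chosen lines gave 64 of the 134 libraries of the study, and 33 lines lay between the groups.

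The study sequenced poly(A) RNA of whole seedlings of the parents Tnz-1 and Ws-2 and of RILs, which are inbred progeny lines with a fixed mixture of both genomes. The RILs are labelled WT and a number, and were read as RILs because the study names no other plants. All rich and poor lines are such RILs without a transgene or mutation named in the labels, 12 days old, grown on MS medium with 3% sucrose under short days (8 h light, 16 h dark). Dark samples were taken at zeitgeber time (ZT) 10 h, after lights-off at ZT 8 h, and light samples at ZT 10 h after 2 h of extra light. Dark and light plants stood in 2 cabinets, so light and cabinet cannot be told apart. Each line had 1 library per condition, from seedlings sown in clusters of about 50 seeds, so the spread below is the spread between lines.

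Seed storage proteins are made in the maturing embryo, packed into protein storage vacuoles and broken down after germination to feed the seedling. Arabidopsis has 2 main kinds, the 12S globulins or cruciferins and the 2S albumins. Their genes are switched on by the B3 regulators ABI3, FUS3 and LEC2 with bZIP factors, and are kept off in seedlings by VAL repressors and Polycomb group proteins. The B3 factors bind the RY element, with the core CATGCA, and the bZIP factors bind ACGT-containing elements.

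Of the 8 genes, CRA1 (AT5G44120), CRU2 (AT1G03880) and CRU3 (AT4G28520) encode cruciferins, and SESA1 to SESA5 (AT4G27140, AT4G27150, AT4G27160, AT4G27170 and AT5G54740) encode albumins. SESA1 to SESA4 are neighbouring copies on chromosome 4, and how reads shared between them were divided is not stated, so their single values are uncertain. The promoters of 3 of the genes are shown because they differ in their content of RY cores, with 7 matches in SESA3, 4 in SESA5 and 1 in CRU3. They run from 250 bases before to 50 bases after the start of the gene in the RefSeq annotation of TAIR10.1, read 5′ to 3′ on the gene's strand. Capitals mark RY cores on either strand, and overlapping matches were counted separately.
SESA3: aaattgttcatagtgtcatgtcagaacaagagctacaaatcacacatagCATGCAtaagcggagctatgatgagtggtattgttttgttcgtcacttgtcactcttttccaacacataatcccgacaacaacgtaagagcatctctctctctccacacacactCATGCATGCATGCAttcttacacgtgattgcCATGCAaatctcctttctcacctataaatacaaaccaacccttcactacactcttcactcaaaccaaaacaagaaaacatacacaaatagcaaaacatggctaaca
SESA5: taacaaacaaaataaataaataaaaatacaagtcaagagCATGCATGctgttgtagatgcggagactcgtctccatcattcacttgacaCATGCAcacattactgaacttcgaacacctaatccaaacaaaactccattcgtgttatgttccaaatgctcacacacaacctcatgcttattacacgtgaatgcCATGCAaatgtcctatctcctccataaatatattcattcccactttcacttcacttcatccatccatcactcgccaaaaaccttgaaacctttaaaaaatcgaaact
CRU3: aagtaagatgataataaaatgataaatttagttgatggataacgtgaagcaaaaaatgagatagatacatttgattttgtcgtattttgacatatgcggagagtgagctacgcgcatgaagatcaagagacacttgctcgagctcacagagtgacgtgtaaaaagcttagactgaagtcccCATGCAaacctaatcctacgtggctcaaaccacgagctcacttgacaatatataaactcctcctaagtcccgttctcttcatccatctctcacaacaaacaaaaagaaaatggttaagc
SESA3 lies at chr4:13611546-13611845 (+ strand), SESA5 at chr5:22239138-22239437 (- strand) and CRU3 at chr4:14087306-14087605 (+ strand). SESA4 had 6 matches, SESA2 3, and SESA1 and CRA1 2 each. Across 27443 promoters of the same window, 9.72% held at least 1 RY core. A match is a description of letters and not a binding site, and a window without a match says nothing of the factor.

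The mean storage sum ran from 1014 to 11512 TPM in the rich lines, with a median of 1527 TPM. In the poor lines it ran from 0.935 to 132 TPM, with a median of 28.4 TPM. These values chose the lines and carry no test. The last rich line, line 52, had 1014 TPM and the next one, line 41, was left out at 899 TPM. The first poor line, line 59, had 132 TPM and line 42, at 134 TPM, was left out. The ranking therefore cut through a gradient and not between separate clusters.

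**Figure D1:**
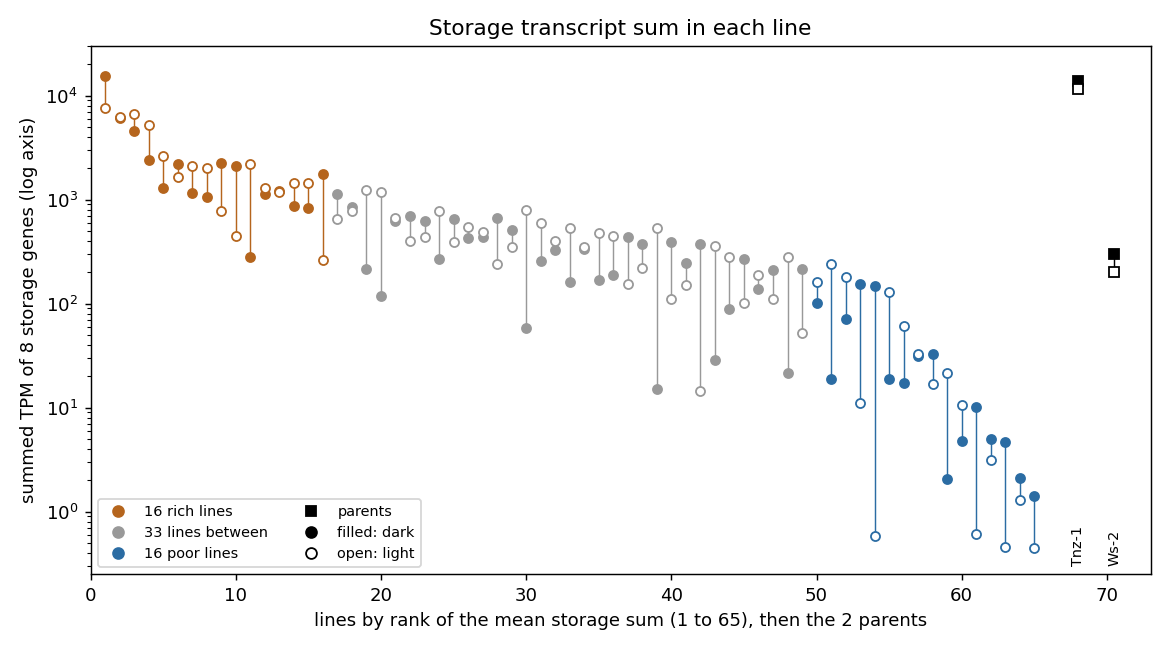
Summed TPM of the 8 storage genes (log axis) in the dark library (filled) and light library (open) of each line, ordered by the mean of both, with the parents as squares. The sum falls without a gap from 11512 TPM to 0.935 TPM, and Tnz-1 lies at the top of the range.

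In the dark libraries the sum was 280 to 15370 TPM in rich lines (median 1532) and 1.42 to 156 TPM in poor lines (median 17.9). In the light libraries it was 260 to 7654 TPM in rich lines (median 1841) and 0.45 to 239 TPM in poor lines (median 13.9). The groups did not overlap in either condition. At most, the storage genes held 1.54% of all TPM in a RIL library. The Tnz-1 sums were 13679 TPM (dark) and 11614 TPM (light), and those of Ws-2 299 and 203 TPM.

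Both libraries of a line did not always give the same amount. The higher of the 2 sums exceeded the lower by a median of 1.87-fold in rich lines, up to 7.88-fold, and by a median of 3.35-fold in poor lines, up to 255-fold. The light library was the higher one in 10 of 16 rich lines and in 8 of 16 poor lines. When the lines were ranked on their dark libraries alone, 16 rich lines had 260 to 7654 TPM in the light libraries that the ranking had not used (median 1549), and 16 poor lines had 0.45 to 799 TPM (median 27.3). All 16 rich lines lay above the poor median and 11 above every poor line. The mean log2(sum + 1) was 10.69 ± 1.44 against 4.91 ± 3.25 (SD, n = 16 each), a difference of 5.79 with p = 1e-05 in a two-sided permutation test, the smallest p that 100000 resamples can give. Ranked on the light libraries, the dark libraries differed by 5.17 with the same p. Both p-values concern the agreement of the 2 libraries of a line. They are no test of rich against poor lines, since the same sums chose the groups. The permutations took lines as independent, although poor lines 48 and 58 were equal at all markers compared.

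Most storage transcript came from 2 genes. CRA1 and CRU3 together made up a median of 88.3% of the sum in the dark and 87.4% in the light in rich lines. CRU3 alone ran from 91.7 to 9786 TPM in rich dark libraries (median 997) and from 0.06 to 78.8 TPM in poor ones (median 5.29), without overlap. SESA3 ran from 0.68 to 1272 TPM in rich dark libraries (median 50.4) and from 0 to 2.33 TPM in poor ones, where 10 of 16 lines were listed at 0. CRU2 ran from 0.12 to 238 TPM in rich dark libraries (median 3.48) and was listed at 0 in 14 of 16 poor lines. In SESA3, 15 of 16 rich lines exceeded every poor line in the dark and line 14, at 0.68 TPM, lay within the poor range. In CRU2, 13 of 16 did.

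The rich lines differed in kind as well as in amount. The 5 albumin genes made up 0.577% to 43.1% of the sum in the dark and 0.764% to 48.2% in the light. In line 5 the albumins held 42.2% of the dark sum and 48.2% of the light sum, and CRU2 held 7.06% and 8.57%. In line 35 the albumins held 39.98% and 33.5%. In line 14 they held 0.577% and 0.764%, so that this line, with 821 TPM in the dark and 1441 TPM in the light, was rich in CRA1 and CRU3 transcript almost alone. The share was not fixed within each line: in line 52 the albumins held 12.01% of the dark sum and 38.9% of the light sum.

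With the 8 storage genes left out, 18103 genes averaged 1 TPM or more across the 130 libraries of all RILs and were tested with limma on log2(TPM + 1). Genes that pass this filter through the rich lines alone had to differ, so the counts that follow are not shares of all members of a list. In the dark 399 genes were called at an adjusted p under 0.05 and a log2 difference of at least 1 (2.2% of those tested), 232 higher (1.28%) and 167 lower (0.922%) in rich lines. By adjusted p alone, 830 genes passed (4.58%). In the light 396 genes were called (2.19%), 214 higher (1.18%) and 182 lower (1.01%), and 889 passed the adjusted p alone (4.91%). In both conditions 347 genes were called the same way (1.92%). Of these, 194 genes were higher (1.07%) and 153 lower (0.845%). The 194 higher genes made up 83.6% of those called in the dark and 90.7% of those called in the light, and the 153 lower genes made up 91.6% and 84.1%. The dark and light libraries come from the same lines, so the second set is no independent sample of lines. With lines ranked by the library not tested, 205 genes were called in the dark (148 higher, 57 lower) and 329 in the light (177 higher, 152 lower). With lines ranked by the mean log2 of the 8 genes, which weights all 8 alike, 144 genes were called in both conditions (120 higher, 24 lower).

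**Figure D2:**
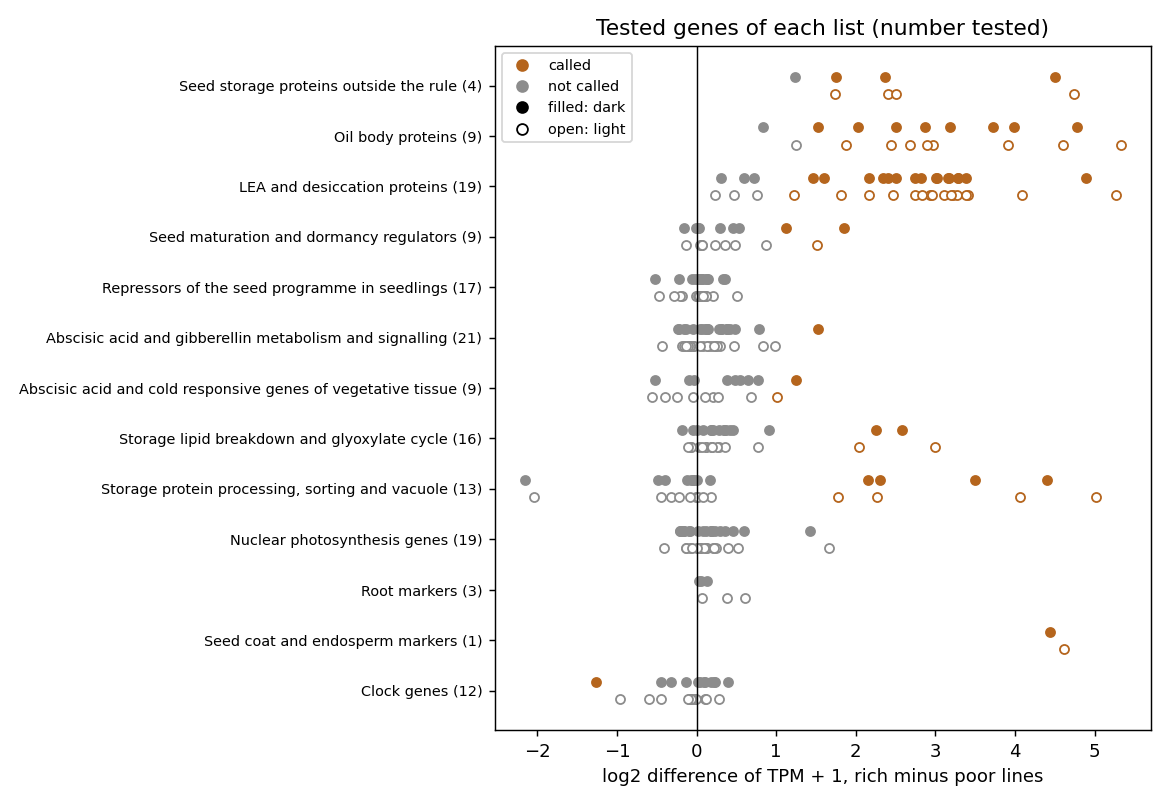
Log2 difference of TPM + 1, rich minus poor lines, of each tested gene of the 13 lists, in the dark (filled) and light (open), coloured where called. Oil body, LEA and other storage genes lie to the right, and photosynthesis, repressor and most clock genes lie around 0.

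Storage proteins outside the 8 genes moved with them. Of 5 such genes, 4 were tested, and 3 were higher in both conditions, against 1.07% of all tested genes. PAP85, a vicilin-like protein, was higher in the light (1.75, adjusted p = 0.0218) and had a log2 difference of 1.24 in the dark (adjusted p = 0.203). The 3 were the cupin genes AT2G28490, AT2G18540 and AT4G36700. The fifth, AT1G03890, a cruciferin-like gene, did not pass the filter. AT2G28490 ran from 10.9 to 404 TPM in rich dark libraries (median 103) and from 0.19 to 26.3 TPM in poor ones (median 2.71), and 14 rich lines exceeded every poor line. Its log2 difference was 4.50 ± 0.43 (SE, limma adjusted p = 2.72e-08) in the dark and 4.74 ± 0.49 (adjusted p = 3.12e-08) in the light.

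Oil body genes, whose products coat the triacylglycerol droplets of the seed, were mostly higher. Of 9 genes, all tested, 8 were higher in both conditions, against 1.07% of all tested genes. The median log2 difference of the list was 2.87 in the dark and 2.90 in the light, against 0.04 and 0.00 over all tested genes. OLEO1 (AT4G25140), an oleosin, ran from 25.8 to 1200 TPM in rich dark libraries (median 189) and from 0.77 to 42.2 TPM in poor ones (median 4.49). In the light it ran from 32.4 to 801 TPM (median 212) against 0.27 to 45.3 TPM (median 3.53). In each condition 15 of 16 rich lines exceeded every poor line. The log2 difference was 4.78 ± 0.46 (SE, limma adjusted p = 2.72e-08) in the dark and 5.33 ± 0.51 (adjusted p = 1.01e-08) in the light. OLEO2 (AT5G40420) differed by 3.98 and 4.60, ATS1 (AT4G26740), a caleosin, by 3.72 and 3.91, and OLEO4 (AT3G27660) by 2.87 and 2.90. HSD1, a steroleosin with a near-identical copy, had log2 differences of 0.84 and 1.25 (adjusted p = 0.668 and 0.415).

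Late embryogenesis abundant (LEA) and desiccation genes, which protect the drying seed, were higher too. Of 19 genes, all tested, 16 were higher in both conditions, against 1.07% of all tested genes. The median log2 difference of the list was 2.74 in the dark and 2.94 in the light. M17 (AT2G41260) ran from 13.2 to 1836 TPM in rich dark libraries (median 209) and from 0.44 to 31.9 TPM in poor ones (median 6.60), and 15 rich lines exceeded every poor line. Its log2 difference was 4.90 ± 0.55 (SE, limma adjusted p = 2.15e-07). EM1 (AT3G51810) and GEA6 (AT2G40170), which encode the Em proteins, differed by 3.01 and 2.74 in the dark and by 3.19 and 3.10 in the light. The 3 genes that were not called were M10, AT4G21020 and RAB18, a dehydrin that seedlings also make under drought. RAB18 had medians of 201 and 151 TPM in rich and poor dark libraries and log2 differences of 0.31 and 0.48 (adjusted p = 0.624 and 0.289).

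Among 13 genes of storage protein processing, sorting and the vacuole, none was called lower. Higher in both conditions were 4, against 1.07% of all tested genes. They were the seed tonoplast channels TIP3;1 (AT1G73190) and BETA-TIP (AT1G17810) and the vacuolar processing enzymes BETA-VPE (AT1G62710), which cleaves storage precursors, and DELTA-VPE (AT3G20210), known from the seed coat. TIP3;1 ran from 33.6 to 999 TPM in rich dark libraries (median 285) and from 1.01 to 102 TPM in poor ones (median 11.1). It differed by 4.40 ± 0.47 in the dark (SE, limma adjusted p = 1.27e-07) and 5.02 ± 0.57 in the light (adjusted p = 1.28e-07). GAMMA-TIP, the vegetative counterpart, had log2 differences of -0.48 and -0.32 (adjusted p = 0.288 and 0.478). The list's median was -0.03 in the dark and 0.02 in the light.

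Of 16 genes of storage lipid breakdown, 2 were higher in both conditions, against 1.07% of all tested genes. They were both enzymes specific to the glyoxylate cycle. Isocitrate lyase, ICL (AT3G21720), had medians of 179 and 34.2 TPM in rich and poor dark libraries and log2 differences of 2.58 and 3.00. Malate synthase, MLS (AT5G03860), had medians of 82.7 and 19.6 TPM and differed by 2.26 and 2.04. Smaller differences passed the adjusted p in both conditions in MFP2 (0.46 and 0.36) and PMDH1 (0.42 and 0.28), of beta-oxidation and the peroxisome. The lipase SDP1, which starts the breakdown, had differences of 0.01 and -0.07 (adjusted p = 0.972 and 0.678).

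**Figure D3:**
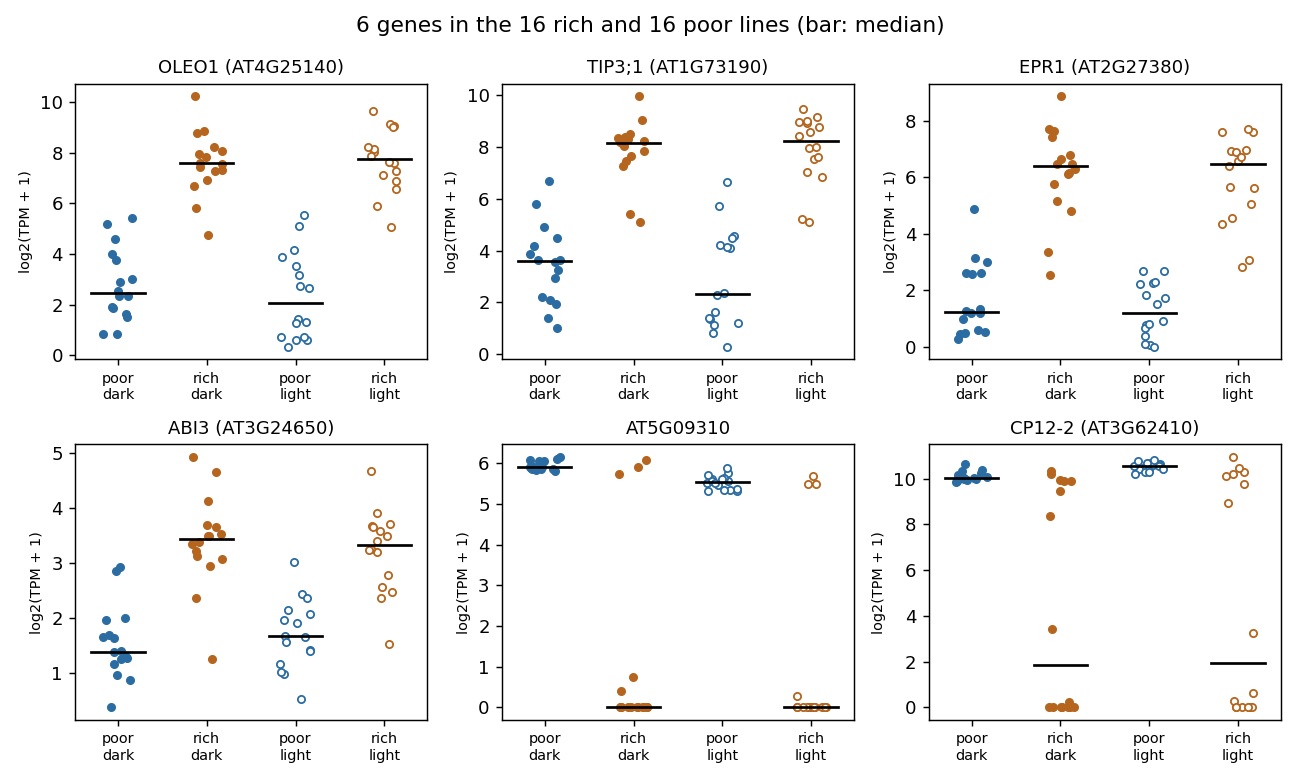
Log2(TPM + 1) of 6 genes in each of the 16 poor and 16 rich lines, dark (filled) and light (open), with the median as a bar. OLEO1, TIP3;1 and EPR1 form a gradient with little overlap. ABI3 overlaps more in the light, where 11 of 16 rich lines lie above every poor line. AT5G09310 is near 0 or close to the poor lines' level in each rich line. CP12-2 runs from 0 to the poor lines' level in rich lines, and line 66 exceeds every poor line in the light (1988 TPM). Lines 13 and 5 lie between (326 and 704 TPM in the dark).

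Regulators of the seed programme ranged from genes listed at 0 to BZIP25, a bZIP factor, with medians of 71.1 and 68.8 TPM in rich and poor dark libraries. Of 17 genes, 9 passed the filter, and LEC1, NF-YB6, LEC2, FUS3, ABI4, DPBF2, DOG1 and HSFA9 did not. Of those 9, 1 was higher in both conditions, against 1.07% of all tested genes. ABI3 (AT3G24650) was higher in both conditions, at 1.40 to 29.5 TPM in rich dark libraries (median 9.85) and 0.30 to 6.60 TPM in poor ones (median 1.62). Its log2 difference was 1.85 ± 0.26 (SE, limma adjusted p = 8.17e-06) in the dark and 1.51 ± 0.24 (adjusted p = 4.25e-05) in the light. Of the rich lines, 14 exceeded every poor line in the dark and 11 in the light. ABI5 (AT2G36270), a bZIP factor of abscisic acid signalling, was called in the dark (1.12, adjusted p = 1.93e-05) and had 0.87 in the light (adjusted p = 0.00942). LEC1 and LEC2 were listed at 0 in all 64 libraries, and FUS3 reached at most 0.84 TPM. Of 20 repressors of the seed programme, 17 were tested and 0 called, with list medians of 0.05 and 0.06. Over all tested genes, 2.2% were called in the dark and 2.19% in the light, so 0 calls in so short a list is no result about it. HSI2 (AT2G30470, VAL1) had medians of 27.7 and 25.9 TPM in rich and poor dark libraries and a log2 difference of 0.15 (adjusted p = 0.228).

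Of 27 genes of abscisic acid and gibberellin metabolism and signalling, 21 were tested. In the dark 1 was called, against 2.2% of all tested genes, and in the light 0, against 2.19%. RGL2 (AT3G03450), the DELLA protein best known for holding back germination, was called in the dark, with medians of 9.19 and 1.73 TPM and a log2 difference of 1.53 ± 0.22 (SE, limma adjusted p = 8.17e-06). In the light its difference was 0.99 (adjusted p = 0.000815). Of 9 genes that vegetative tissue induces under abscisic acid or cold, 1 was higher in both conditions, against 1.07% of all tested genes. It was LTI65 (1.24 and 1.01), and COR15A had -0.52 and -0.56 (adjusted p = 0.597 and 0.556).

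Markers of other organs and cell types were measured beside these lists. Of 3 seed coat and endosperm markers, EPR1 (AT2G27380), an extensin of the endosperm in germinating seed, was tested and was higher in both conditions. It ran from 4.73 to 468 TPM in rich dark libraries (median 82.6) and from 0.21 to 27.97 TPM in poor ones (median 1.34), and differed by 4.45 ± 0.50 in the dark and 4.61 ± 0.44 in the light (SE, limma adjusted p = 1.96e-07 and 1.01e-08). The seed coat genes BAN and TT12 did not pass the filter. BAN was listed at 0 in all 64 libraries, and TT12 reached at most 0.35 TPM. The summed level of the 3 markers was 4.73 to 468 TPM in rich and 0.21 to 27.97 TPM in poor dark libraries. That is the range of EPR1 alone, so the sum adds nothing on the seed coat. The part of ungerminated or late seeds, and of their remains, in the storage transcripts was not tested. In whole seedlings, more cells of a type and more RNA per cell cannot be told apart.

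Of 5 root markers, 3 were tested and 0 called. Over all tested genes, 2.2% were called in the dark and 2.19% in the light. At those shares, few or no calls in lists as short as these are no result about their members. PYK10 had medians of 1261 and 1268 TPM in rich and poor dark libraries. Of 19 nuclear photosynthesis genes, all tested, 0 were called in either condition, and their summed level had medians of 59489 and 60613 TPM in rich and poor dark libraries and 69046 and 67121 TPM in the light. Of 12 clock genes, all tested, AT5G08330 (listed as TCP11, the CHE repressor of CCA1) was called lower in the dark. It ran from 15.1 to 59.4 TPM in rich lines and from 27.5 to 100 TPM in poor lines, a log2 difference of -1.26 ± 0.19 (SE, limma adjusted p = 2.16e-05), and -0.97 in the light (adjusted p = 3.4e-05). Its locus number lies close to that of YLS8, described below.

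Outside the lists, the genes with the largest higher values in both conditions included NSP2 (AT2G33070), a nitrile specifier of glucosinolate breakdown. It had medians of 61.2 and 0.965 TPM in rich and poor dark libraries and log2 differences of 4.69 and 4.77. AT1G54870, a Rossmann-fold protein, differed by 4.55 and 4.97, and AT5G59170, an extensin-like protein, by 4.23 and 4.43. AT1G05510 differed by 4.14 and 4.51. AT2G05580, a glycine-rich protein, was listed at 0 in 11 of 16 poor lines in each condition. In the dark it had 2.10 to 291 TPM in rich and 0 to 0.85 TPM in poor lines. It passed the filter through lines with high values, so its lack of overlap in both conditions carries no test. PSRP6 (AT5G17870), a plastid ribosomal protein, had another pattern. It was listed at 0 in 5 rich and 14 poor lines in the dark. Its highest dark values were 965 TPM in rich and 974 TPM in poor lines. By the marker calls described below, 11 of 16 rich lines and 1 of 16 poor lines were Tnz-1-like. In the dark parental libraries PSRP6 was at 979 TPM (Tnz-1) and listed at 0 (Ws-2).

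The promoters of the 194 higher genes were searched with the same window, and 193 had one. An RY core was in 67 of them (34.7%), against 8.56% of the promoters of tested genes. The core ACGTG of the abscisic acid response element was in 66.8% against 28.3%, and the G-box CACGTG, which contains it, in 37.3% against 9.26%. Both strands were searched. For the lower genes the shares were 8.9%, 30.1% and 5.48% of 146 promoters. These are shares of letters, with no test.

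The lower genes lay mostly on chromosome 5. Of 153 lower genes, 130 were on chromosome 5, 20 on chromosome 3, 2 on chromosome 4, 1 on chromosome 2 and 0 on chromosome 1. That was 3.08% of the tested genes of chromosome 5. The higher genes were on all 5 nuclear chromosomes, from 0.588% of tested genes on chromosome 4 to 1.61% on chromosome 5. In windows of locus numbers, 11.1% of tested genes from AT5G05000 to AT5G09999 and 11.1% of those from AT5G15000 to AT5G19999 were lower. On chromosome 3 the highest share was 4.09%, from AT3G60000 to AT3G64999. The highest shares of higher genes also lay on chromosome 5, 3.39% from AT5G10000 to AT5G14999 and 3.54% from AT5G15000 to AT5G19999. From AT5G00000 to AT5G19999, 124 of 1462 tested genes were lower (8.48%) and 42 higher (2.87%), against 29 lower (0.175%) and 152 higher (0.918%) of 16550 in all other windows.

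**Figure D4:**
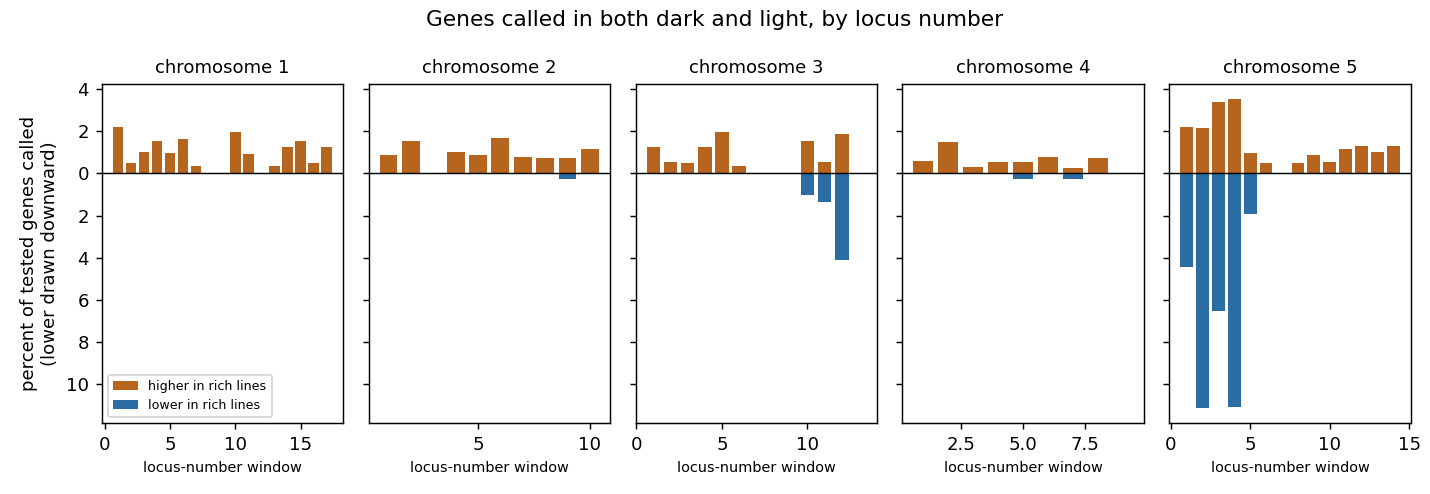
Percent of tested genes called in both dark and light in windows of 5000 locus numbers along each chromosome, higher in rich lines drawn upward and lower drawn downward. Lower genes gather at the upper end of chromosome 5 and at the lower end of chromosome 3, and higher genes lie on all chromosomes, with their highest shares (3.39% and 3.54%) also at the upper end of chromosome 5.

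In the parents, 140 of the 153 lower genes (91.5%) were at least 1 log2 unit higher in Ws-2 in both conditions and 0 were higher in Tnz-1, against 14.8% and 7.09% of tested genes. Of the 194 higher genes, 172 (88.7%) were higher in Tnz-1. The parents had 1 library per condition.

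Many lower genes were listed near 0 or near the Ws-2 level in a line. Whether such low values reflect absent transcript or unassigned reads was not tested. YLS8 (AT5G08290), a splicing factor subunit, ran from 0 to 222 TPM in rich dark libraries (median 0.85) and from 164 to 239 TPM in poor ones (median 209), and 13 rich lines lay below every poor line. Its log2 difference was -5.56 ± 0.67 (SE, limma adjusted p = 5.32e-07). The dark library of Tnz-1 had 1.20 TPM and that of Ws-2 had 196 TPM. CP12-2 (AT3G62410), a regulator of the Calvin cycle on chromosome 3, ran from 0 to 1287 TPM in rich lines (median 4.95) and from 927 to 1623 TPM in poor ones, a difference of -5.62 ± 1.18 (adjusted p = 0.0023). PGIP1 (AT5G06860), an inhibitor of polygalacturonase, differed by -4.73 in the dark and -5.20 in the light.

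Genes at or near 0 in one parent and clearly higher in the other served as markers of parental origin, 179 in all. Of these, 145 were high in Ws-2 and 34 in Tnz-1, and how reads of either parent were assigned is not stated. The markers include OLEO3, an oil body gene that was higher in rich lines. It was Tnz-1-like in 3 of 14 rich and 0 of 16 poor lines with a call, so it is not free of the grouping. AT5G09310, a gamma-secretase subunit gene, was Tnz-1-like, that is at or near 0, in 13 of 16 rich lines, in 0 of 16 poor lines and in 18 of all 65. AT5G11280 was Tnz-1-like in 12 rich and 0 poor lines, and AT5G11900 in 12 and 1. The difference between the groups, rich minus poor, ran from -31.2 to 81.2 percentage points on chromosome 5, from -6.25 to 56.2 on chromosome 3, from -25 to 37.5 on chromosome 4, from -6.25 to 31.2 on chromosome 2 and from -21.7 to 18.8 on chromosome 1. The median over markers was -12.5 on chromosome 1, 6.25 on chromosomes 3 and 4, and 18.8 on chromosomes 2 and 5. Markers were picked here for their difference, so it carries no test. The 18 lines with the Tnz-1-like call at AT5G09310 had storage sums of 320 to 11512 TPM (median 1245), and the other 47 had 0.935 to 6127 TPM (median 195). Rich lines 35, 5 and 66 had the Ws-2-like call, and line 35 ranked 2 of all lines.

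Since the call at AT5G09310 nearly coincided with the groups, 2 fits with it as a covariate were added after the data were seen. In the 32 lines, 0 genes were then called in the dark and 25 in the light, all higher, and 0 in both. This fit rests on 3 rich lines with the Ws-2-like call. Over all 65 lines, expression was regressed on the log2 storage sum with the call in the model. In both conditions 114 genes were higher and 0 lower, against 188 and 86 without the call. Of the 12 most raised genes, 11 were still called in both, all except PSRP6. Of the 12 most lowered, 0 were, and one of these is AT5G09310 itself, whose value the call fixes. AT5G09310 was the marker with the largest difference between the groups, and the 12 genes of each direction were picked for theirs. The storage sum also chose the groups, so these counts carry no test of a cause. OLEO1 differed by 3.84 ± 0.37 in the dark and 4.98 ± 0.34 in the light (SE, limma adjusted p = 4.05e-11 and 1.19e-17), per distance between the group means. ABI3 differed by 1.14 and 1.13 (adjusted p = 0.00265 and 0.000308). YLS8 had -0.25 and -0.15 (adjusted p = 0.502 and 0.601).

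The share of Tnz-1-like calls over all markers was 34.6% ± 14.7 in rich and 23.7% ± 15.6 in poor lines (SD, n = 16 each), a difference of 10.9 points (two-sided permutation test, p = 0.0502). Within 4 ranges of line numbers, whose meaning the labels do not give, the difference was 14.5 points (p = 0.00613). It was 8.16 points with 8 lines per group (p = 0.327), 8.47 with 24 (p = 0.0634) and 6.02 with lines ranked by the mean log2 of the 8 genes (p = 0.314), all by permutation tests. The ranges held 4, 5, 5 and 2 rich lines and 3, 1, 5 and 7 poor lines. These tests took the lines as independent, yet poor lines 48 and 58 were equal at all markers compared and poor lines 3 and 4 at 97.2%. A version of them without such lines was not run.

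Some lines were nearly identical by markers, with at least 97% equal calls in 9 pairs. Lines 38 and 39, equal at 99.4% of 177 markers, had 5643 and 550 TPM, a 10.3-fold difference, and only line 38 was rich. Lines 56 and 63, equal at 99.4% of 175 markers, had 152 and 2.55 TPM, a 59.7-fold difference. Lines 48 and 58, equal at all 178, were both poor at 1.70 and 4.03 TPM. Over the 9 pairs the higher mean sum exceeded the lower by 1.28-fold to 59.7-fold, with a median of 2.37-fold, and over the 2071 other pairs of lines the median was 4.57-fold.

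The light change was compared between the groups last. In rich lines 903 genes changed with extended light (4.99% of those tested), 415 up and 488 down, and in poor lines 953 (5.26%), 498 up and 455 down. Both groups shared 362 genes up and 408 down, and 0 changed in opposite directions. The difference in light change itself was called for 0 of 18103 genes (0%) by limma, with 266 at an unadjusted p under 0.05. That fit did not pair the 2 libraries of a line, which correlated (median r = 0.790), so it is conservative for this difference. With the line as a block, 0 genes were called at a log2 difference of at least 1, and 2 passed the adjusted p alone. The slope of a line's light changes on those of the other lines was 0.959 ± 0.115 in rich and 0.979 ± 0.127 in poor lines (SD, n = 16 each; two-sided permutation test, p = 0.652). The storage sum itself was not higher in 1 condition throughout, as given above.

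**Figure D5:**
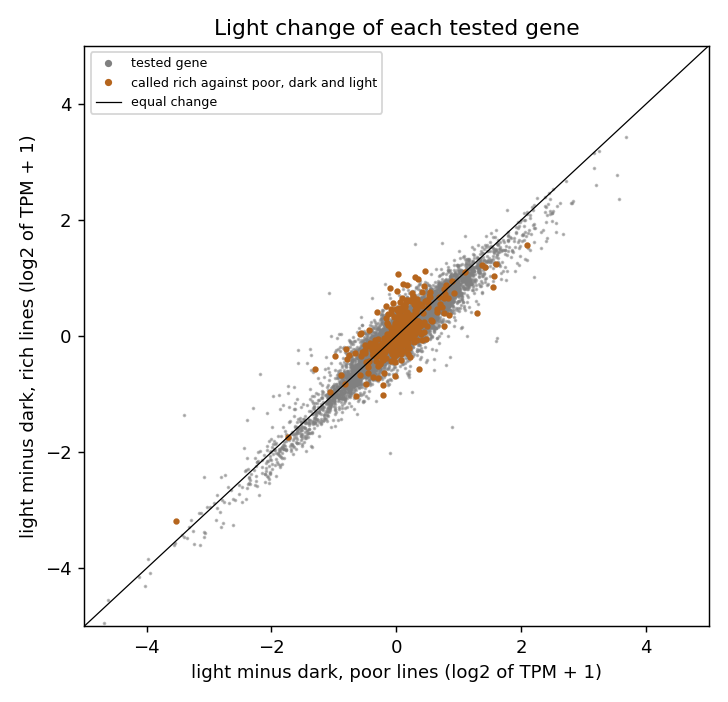
Mean light change (light minus dark, log2 of TPM + 1) of each tested gene in the 16 poor lines (x axis) and the 16 rich lines (y axis), with genes called between the groups in colour and a line of equal change. The genes lie along the line, and 0 of 18103 differed past the threshold.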

How the data were processed

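The authors deposited 1 table of TPM values (transcript abundance scaled for length and library total) for 28775 genes in 134 libraries. Per the submitters' processing notes, cutadapt 3.4, Salmon 1.6.0, GATK and the build TAIR10 were used, with no roles given. Per the labels' protocols, libraries were directional and poly(A)-selected. TPM do not hold the number of reads, so depth is unknown and a value of 0 is given only as listed at 0. Between 7999 and 10397 genes were listed at 0 in a library of the 32 lines, and the 10 most abundant genes held 5.84% to 9.27% of its TPM.

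Genes averaging 1 TPM or more were compared on the log2(TPM + 1) scale by limma (version 3.58.1, R 4.3.3, trend, Benjamini-Hochberg adjustment over 18103 genes). Fold changes on this scale understate the change of low genes. P-values measure the spread between lines, each with 1 library per condition. The line number pairs dark and light libraries of 1 inbred line. Their deviations from the group means correlated at r = 0.619 to 0.852 (median 0.790), against a median of -0.02 between lines. On simulated data for 18096 genes the dark comparison recovered 95 of 100 genes changed by 1.5 on the log2 scale, with 2 false calls. The simulation drew both groups as independent normal values from the poor lines' means and spreads, and changed only genes of higher expression. Genes such as YLS8 spread more in rich lines (SD 79.4 against 22.0 TPM in the dark), so these rates do not carry over to them.

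Named genes were the 12 with the largest mean difference in each direction among those called in both conditions at a mean TPM of at least 5, the called members of the 13 lists and up to 3 others of each, and the 8 storage genes. The text gives a selection of these. The genes of the difference in light change had to pass the adjusted p. Lines, members and lists were chosen with earlier results of these data known. Markers were tested genes at 0.5 TPM or less in both libraries of one parent and at 10 TPM or more in the other, with at most 5% of RIL libraries between. Gene names and promoters came from RefSeq's TAIR10.1, and locus numbers, not coordinates, gave the order of genes. The promoter of 1 storage gene is not reported here. Alternatives were the pseudocount, the filter, the scaling, the size and ranking of the groups, covariates, near-identical lines, the threshold and the replicate block.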

Additional observations from a re-analysis of the deposited data

Results flagged for a closer look

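With the line as a block, the test of the difference in light change between rich and poor lines passed the adjusted p for 2 genes, both below the log2 difference of 1 required for a call. For AT3G27250 the light change was -0.76 (log2) in rich minus poor lines, and for AT4G23050 it was -0.48. AT3G27250 had medians of 7.57 and 5.63 TPM in rich and poor dark libraries and 62.4 and 71.3 TPM in the light. AT4G23050 had medians of 31 and 19.3 TPM in the dark and 49.3 and 38.97 TPM in the light.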

How the results depend on the processing

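Against 399 genes called in the dark, 396 in the light and 347 in both, ranking lines by the mean log2 of the 8 genes gave 170, 185 and 144 (120 higher, 24 lower), and ranking by the library not tested gave 205 in the dark. The cause was not tested. A log2 threshold of 0.5 gave 630 in the dark and 667 in the light, and no threshold gave 830, 889 and 606. For the light response, the same thresholds gave 2846 and 6299 genes in rich lines and 3116 and 6723 in poor lines. With the share of Tnz-1-like markers as a covariate, 203 genes were higher and 74 lower in both conditions. The other settings, apart from those with the call at AT5G09310 below, left the total counts within 1.5 times. Of the 153 lower genes called in both conditions, the count became 82 with 24 lines per group, 86 in a regression over 65 lines and 97 with the range of line numbers as a covariate, and the 194 higher genes became 119 at a mean of at least 5 TPM. Without the 4 highest lines, an alternative chosen after seeing the data, 279 genes were called in both. The Tnz-1-like share differed by 14.5 points within ranges of line numbers, and the slope by 0.0203 with 8 lines per group, of opposite sign to the main value.

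The replicate block, pairing both libraries of a line, gave 935 and 979 genes for the light response of rich and poor lines, against 903 and 953 without it, and 0 for its difference. Without a log2 threshold, also chosen after seeing the data, it gave 2 for the difference.

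Both alternatives with the call at AT5G09310 were chosen after seeing the data. As a covariate in the 32 lines it left 0 genes in the dark, 25 in the light and 0 in both. In the regression over 65 lines it left 130, 171 and 114. Among the 12 most lowered genes, signs turned in 7 besides AT5G09310, whose value the covariate fixes, with no adjusted p under 0.05. As a covariate in the 32 lines, the log2 differences in the dark and light became 0.60 and 0.10 for AT5G06860, 0.33 and 0.26 for AT5G16470, 0.25 and 0.15 for AT5G11900, 0.55 and 0.29 for AT5G03040, 0.49 and 0.22 for AT5G03460, and 0.42 and 0.26 for AT5G14410. In the light they became 0.022 for AT5G08290 and 0.017 for AT5G09310. In the regression the dark and light values became 0.46 and 0.40 for AT5G16470, 0.40 and 0.33 for AT5G11900, and 0.56 and 0.23 for AT5G14410. In the dark they became 0.16 for AT5G06860 and 0.0053 for AT5G03040.

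Depth is unknown, each line had 1 library per condition, and dark and light plants stood in different cabinets. The groups were cut from a gradient of the same libraries that were then tested, so genes that vary with the storage genes within a library are favoured. The parents had no replicates. Values of tandem copies are uncertain, and markers rest on expression and not on genotypes.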
